A study of Mus musculus with 20 samples.

Results

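The inflammatory cytokine genes Il1a, Il1b, Il1rn, Il18, Il6, Il10, Il12b, Il15 and Tnf were followed through 5 populations of macrophages. They were chosen by symbol, and all 9 were found among the 24421 genes of every library and passed the filter on low counts. The study sequenced total RNA of macrophages from C57BL/6JRj mice in 20 libraries, 4 in each of 5 populations. These are macrophages of the dura, the outer membrane of the brain, labelled high or low in MHC class II, macrophages of the choroid plexus, the tissue that makes cerebrospinal fluid, microglia of the brain, and macrophages of the peritoneal cavity. In the labels the second dura population is "int" by title and "lo" by cell type, and it is called MHC II-low here. All 5 groups share the strain and no treatment, genotype or age is given for any of them. Isolation of the cells is described only by reference to the study's paper, so a difference between populations and a difference in how their tissues were handled cannot be told apart. Nothing in the labels says that the replicates are separate animals, and the spread behind every p-value is that between samples, part or all of which may be technical.

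Cytokines are secreted proteins by which macrophages call in and instruct other cells. Il1a and Il1b encode the agonists of the interleukin-1 receptor, and Il1rn encodes the antagonist that occupies this receptor without signalling. Interleukin-1 beta and interleukin-18 are made as precursors that caspase-1 cuts within inflammasomes, whereas tumour necrosis factor, the product of Tnf, is released from the cell surface by the protease ADAM17. Interleukin-6 and the interleukin-12 p40 subunit encoded by Il12b are typically induced by microbial sensors through NF-kappaB, interleukin-15 supports NK cells and memory T cells, and interleukin-10 restrains macrophage activation. Several of these transcripts appear within minutes to hours of stimulation, and cell dissociation is itself known to induce some of them in microglia.

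Library depth was 13383274–32611875 gene counts, lowest in the choroid plexus (13383274–16052955) and in microglia (15312617–17156227). Levels are given as CPM, counts per 1e+06 gene counts of the library after TMM scaling, and 3 counts in a library amount to 0.0964–0.222 CPM. Defining markers matched the labels: microglia had the highest summed level of microglial markers (25913–34889 CPM), both dura populations the highest of border macrophage markers (4237–7426 CPM) and peritoneal macrophages the highest of large peritoneal macrophage markers (13740–15885 CPM). The MHC class II genes summed to 52451–58893 CPM in MHC II-high and 2089–2319 CPM in MHC II-low dura, and to 43639–61449 CPM in the choroid plexus. Of 8 neutrophil markers, 7 were in the files, and their summed level was 0.590–3.41 CPM in all 20 libraries. The 7 monocyte markers, in contrast, summed to 1070–1259 CPM in MHC II-high dura and at most 503 CPM elsewhere, nearly all of it in the dura from Ccr2. Several libraries stood apart. Markers of choroid plexus epithelium reached 10552 CPM in microglia replicate 3, above the 2124–3567 CPM of the choroid plexus libraries. In microglia replicate 5, 12 interferon response genes summed to 1345 CPM, against 139–191 CPM in the other microglia libraries. A list of 20 immediate early and heat shock genes summed to 57606 and 59224 CPM in choroid plexus replicates 2 and 3, and to 28634 and 27246 CPM in replicates 1 and 4.

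The start site regions of Il1a, Il1b and Tnf are shown because these 3 genes reached the highest mean levels of the 9 per kilobase of exon, 296 CPM per kilobase for Il1a in microglia and 236 for Il1b and 157 for Tnf in the choroid plexus. Each runs from 250 bases before to 50 bases after the start in RefSeq's annotation of GRCm38.p6, and is written in the direction of transcription. Capitals mark a TATA box (TATAAA on either strand) or an AP-1 motif (TGANTCA, a match on both strands at once). Il1a and Il1b lie 54597 bases apart on chromosome 2, and all 3 regions are on the minus strand.
Il1a, chr2:129309923-129310222: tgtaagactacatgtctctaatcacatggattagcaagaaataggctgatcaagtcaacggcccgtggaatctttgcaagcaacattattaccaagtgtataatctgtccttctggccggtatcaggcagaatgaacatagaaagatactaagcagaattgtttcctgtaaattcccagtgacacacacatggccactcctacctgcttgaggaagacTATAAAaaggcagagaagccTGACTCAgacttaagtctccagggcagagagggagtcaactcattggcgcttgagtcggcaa
Il1b, chr2:129371090-129371389: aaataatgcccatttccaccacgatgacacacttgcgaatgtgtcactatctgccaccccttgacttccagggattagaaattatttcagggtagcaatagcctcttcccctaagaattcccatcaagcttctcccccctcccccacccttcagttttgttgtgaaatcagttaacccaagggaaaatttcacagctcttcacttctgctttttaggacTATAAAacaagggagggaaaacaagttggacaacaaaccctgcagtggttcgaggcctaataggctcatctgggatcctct
Tnf, chr17:35201958-35202257: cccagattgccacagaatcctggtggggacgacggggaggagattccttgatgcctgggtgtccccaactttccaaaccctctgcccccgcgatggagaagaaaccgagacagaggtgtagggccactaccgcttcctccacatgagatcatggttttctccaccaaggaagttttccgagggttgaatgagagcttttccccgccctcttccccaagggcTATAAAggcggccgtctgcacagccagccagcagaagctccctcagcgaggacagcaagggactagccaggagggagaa
The TATA box began 32 bases before the start in Il1a, 31 before it in Il1b and 29 before it in Tnf, and Il1a also held an AP-1 motif beginning at position −12. RefSeq gave 9 start regions for 7 of the cytokine genes (3 of them for Il1rn), with no entry for Il10 and Il15. Of these 9, the letters of the TATA box were found in 5 (13.6% of all 32851 start regions). In Il18 and Il1rn they were on the opposite strand, beginning at positions −175 and 15, away from the place they had in Il1a, Il1b and Tnf. An AP-1 motif was found in 3 (7.81%) and the NF-kappaB consensus in 1 (8.46%), that of Il6, where it began at position −44. No region held the core of the interferon-stimulated response element, which 3.44% of all start regions hold. These are matches of letters in a short window.

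Every comparison of 2 populations was fitted in edgeR over 13960 genes, with a call defined as a change of 2-fold or more whose adjusted p is under 0.05. The 5 populations had different cytokine profiles. Microglia stood out by Il1a, choroid plexus and MHC II-high dura macrophages by Il1b, and both dura populations by Il10. MHC II-low dura had less Il1b (mean 153 CPM) but more than microglia (18.2 CPM). Its calls against the choroid plexus and MHC II-high dura were lost in some fits, as given below. In peritoneal macrophages Il1b, Il10, Il12b and Tnf were near or below 1 CPM. Of these, Il10 was lower still in microglia (mean 0.0154 CPM), and Il12b was low in every population (highest mean 2.05 CPM, in MHC II-high dura). Tnf was at 141–257 CPM on average in both dura populations, the choroid plexus and microglia, called the 4 brain populations below, and Il18 was called in none of the 10 comparisons. In bulk samples such as these, fewer cells making a transcript and less of it per cell cannot be told apart.

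**Figure D1:**
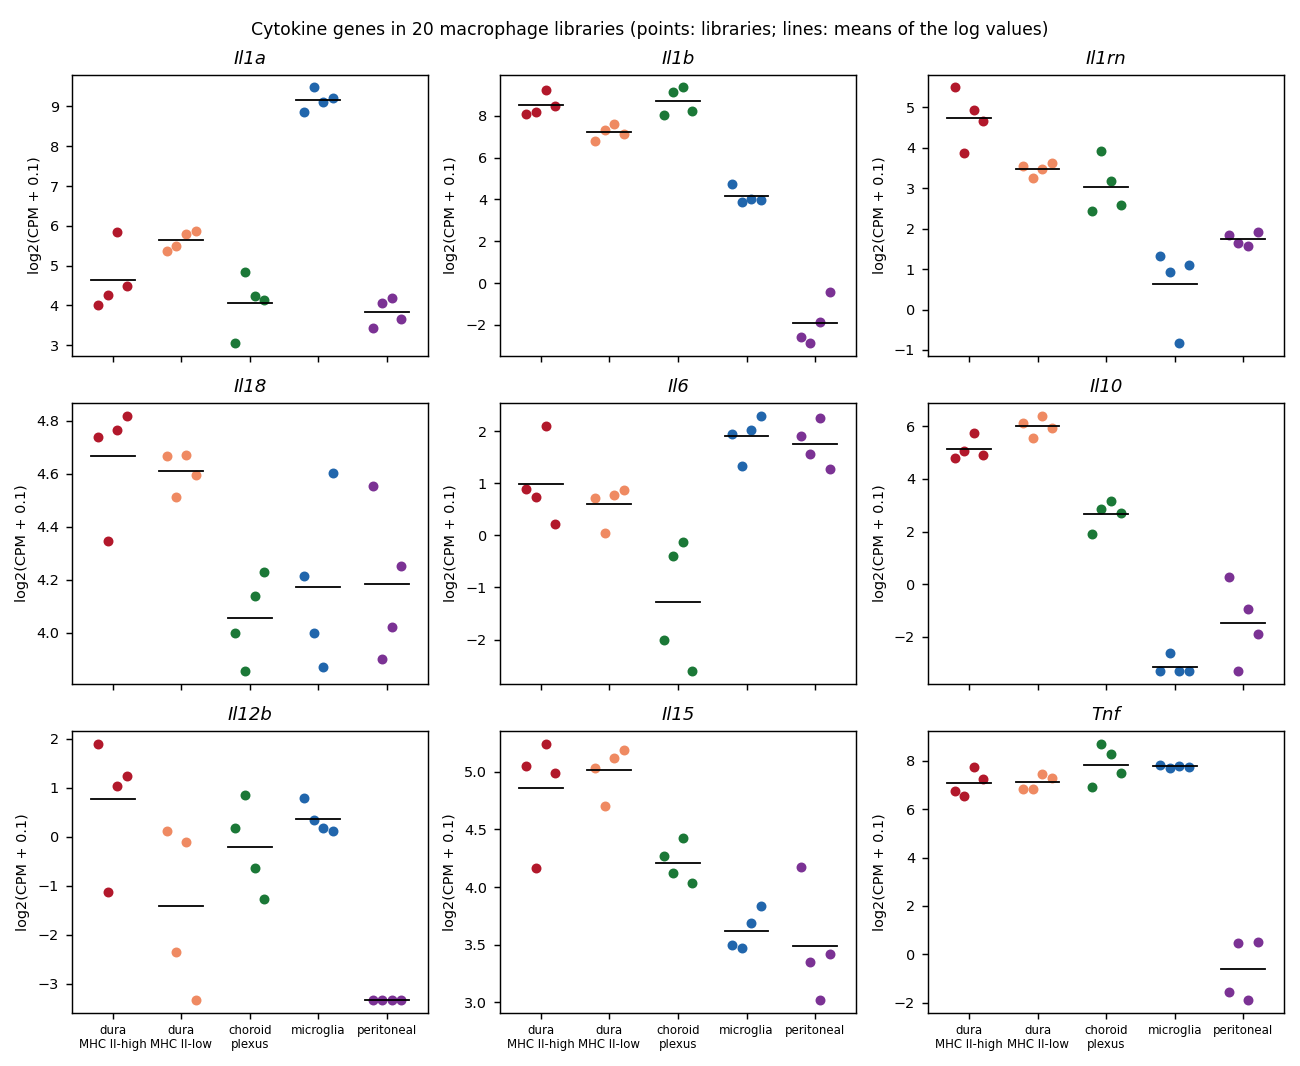
Level of each cytokine gene (CPM + 0.1, log axis) in the 4 libraries (points) of each of 5 populations, with a black line at the mean of the log values. Il1a is highest in the 4 microglia libraries, Il1b and Tnf are near the bottom of the scale in peritoneal macrophages, and Il18 lies between 14.4 and 28.1 CPM in all 20 libraries.

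Within the dura, 2 of 9 cytokine genes were called between MHC II-high and MHC II-low macrophages, where 3.88% of all genes tested were called. Both, Il1b and Il1rn, were higher in MHC II-high cells. Against the choroid plexus, MHC II-high dura had 3 calls (9.88% of all genes), each of them higher in the dura: Il1rn, Il6 and Il10. MHC II-low dura had 4 calls against the choroid plexus (12.8% of all genes), with Il1a, Il6 and Il10 higher and Il1b lower.

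Microglia were the reference for 4 comparisons, which share the microglia libraries. Il1b, Il1rn, Il10 and Il15 were higher and Il1a was lower in MHC II-high dura, 5 calls where 27.9% of all genes were called. MHC II-low dura had the same 5 calls and Il6 lower besides, 6 where 26.5% of all genes were called. In the choroid plexus Il1b, Il1rn and Il10 were higher and Il1a and Il6 lower, 5 calls against 19.2% of all genes. Peritoneal macrophages had 5 calls against microglia, with 44.6% of all genes called, and the directions were mostly downward: Il10 was higher, and Il1a, Il1b, Il12b and Tnf were lower.

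Set against peritoneal macrophages, both dura populations and the choroid plexus were mostly higher in cytokine transcripts. MHC II-high dura had 6 of 9 higher (29.2% of all genes were called in either direction) and MHC II-low dura 7 of 9 (31.9%). The gene called only in MHC II-low dura was Il1a. In MHC II-high dura it was just under 2-fold higher (log2 0.99, edgeR adjusted p = 0.0325) and was called in 5 fits that left out a library. The choroid plexus had 5 higher and 1, Il6, lower (36.7% called in either direction). These 3 comparisons share the peritoneal libraries. The median log2 fold change of the 9 genes was 3.14 in MHC II-high dura, 1.80 in MHC II-low dura and 1.43 in the choroid plexus, beside 0.10, 0.11 and 0.13 over all genes tested. Against microglia the medians were nearer 0, at 0.76, 0.41, 0.23 and −0.15 for MHC II-high dura, MHC II-low dura, choroid plexus and peritoneal macrophages. Leaving out choroid plexus replicates 2 and 3 together, or microglia replicates 3 and 5 together, moved no count of calls by more than 1.

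**Figure D2:**
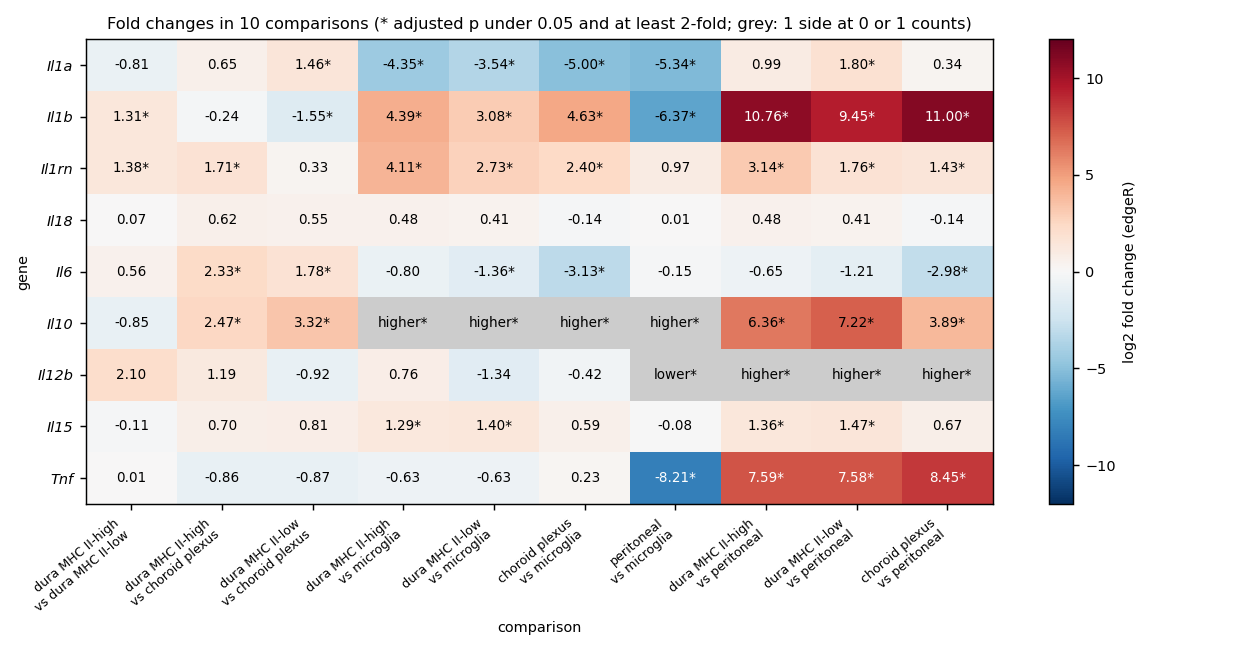
Log2 fold change of each cytokine gene (rows) in 10 comparisons of 2 populations (columns), the first-named over the second, from edgeR. An asterisk marks a called gene, and grey cells give only the direction because 1 side had 0 or 1 counts in all. The row of Il18 has no call. The last 3 columns are mostly red because most cytokine transcripts were higher in both dura populations and the choroid plexus than in peritoneal macrophages.

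Il1a (chromosome 2, 129299610–129309972, minus strand) encodes interleukin-1 alpha, an agonist that is active without inflammasome cutting. Microglia had 468, 715, 556 and 598 CPM in replicates 1, 3, 4 and 5. In replicates 1 to 4, MHC II-low dura had 41.1, 45.1, 55.8 and 58.8 CPM and the choroid plexus 8.2003, 28.6, 18.6 and 17.3 CPM. The microglia libraries lay above every library of the other populations, the highest of which had 58.8 CPM. In MHC II-high dura the values were 16.04, 19.1, 57.6 and 22.1 CPM, with replicate 3 far above the other libraries of that population, and in peritoneal macrophages 10.6, 16.5, 18.1 and 12.6 CPM. The log2 fold change of microglia over MHC II-low dura, the next in order, was 3.54 ± 0.39 (± is an approximate standard error for fold changes), with an edgeR adjusted p of 8.62e-07. Below microglia the order was MHC II-low dura (50.2 ± 8.46 CPM, mean ± SD, n = 4), MHC II-high dura (28.7 ± 19.4), choroid plexus (18.2 ± 8.35) and peritoneal macrophages (14.4 ± 3.44), and no neighbours in it passed the test. MHC II-low dura was however above the choroid plexus by 1.46 ± 0.38 on the log2 scale (edgeR adjusted p = 0.00762). The difference between the dura populations (log2 −0.81 ± 0.36, edgeR adjusted p = 0.181) was called when MHC II-high replicate 3 was left out (log2 −1.40, adjusted p = 0.00546). Exons of Gm14023 cover 11.25% of the exon length of Il1a, so a part of its counts is uncertain.

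Il1b (chromosome 2, 129364570–129371139, minus strand) encodes interleukin-1 beta, the agonist that needs caspase-1. Choroid plexus macrophages had 263, 575, 662 and 301 CPM in replicates 1 to 4 and MHC II-high dura 276, 292, 600.3 and 356 CPM. Values in MHC II-low dura were 109.9, 162, 198 and 142 CPM. The choroid plexus and MHC II-high dura overlapped fully, and all 4 MHC II-low libraries lay below both. Microglia had 26.5, 14.6, 16.2 and 15.4 CPM in replicates 1, 3, 4 and 5, and peritoneal macrophages 0.0691, 0.0364, 0.172 and 0.643 CPM, 23 counts in all 4 libraries together. MHC II-low dura, microglia and peritoneal macrophages thus followed each other without overlap. MHC II-high dura was above MHC II-low dura by 1.31 ± 0.36 on the log2 scale (edgeR adjusted p = 0.024), a call lost without MHC II-high replicate 3 or without MHC II-low replicate 1, 2 or 4 (adjusted p = 0.0579–0.0923). MHC II-low dura was above microglia by 3.08 ± 0.39 (edgeR adjusted p = 3.79e-06), and peritoneal macrophages were below microglia (log2 −6.37 ± 0.57, adjusted p = 2.06e-08; −7.55 without peritoneal replicate 4). The choroid plexus over MHC II-low dura (MHC II-low minus choroid plexus, log2 −1.55 ± 0.36, edgeR adjusted p = 0.00382) was no longer called without choroid plexus replicates 2 and 3 (log2 −0.86, adjusted p = 0.134). An antisense gene, Il1bos, shares 1.31% of the exon length of Il1b, and the strand setting of the counting is not given in the sources used here.

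Il1rn (chromosome 2, 24336853–24351494, plus strand), the receptor antagonist, was highest in MHC II-high dura. It did not follow MHC class II in the choroid plexus, where those genes were also high and mean Il1rn was 8.77 CPM. MHC II-high dura had 44.9, 14.6, 30.3 and 25.1 CPM in replicates 1 to 4 and MHC II-low dura 11.5, 9.35, 11.04 and 12.2 CPM. The groups did not overlap, with replicate 1 of MHC II-high dura the highest of all 20 libraries. The choroid plexus had 5.32, 14.9, 8.94 and 5.91 CPM, peritoneal macrophages 3.45, 3.02, 2.86 and 3.69 CPM and microglia 2.38, 1.79, 0.463 and 2.05 CPM in replicates 1, 3, 4 and 5. Il1rn was higher in MHC II-high than in MHC II-low dura by 1.38 ± 0.36 on the log2 scale (edgeR adjusted p = 0.0167), a call lost without MHC II-high replicate 1 or MHC II-low replicate 2 (adjusted p = 0.0572–0.0667). MHC II-low dura and the choroid plexus overlapped and did not pass the test (log2 0.33 ± 0.36, edgeR adjusted p = 0.532). The choroid plexus was above peritoneal macrophages (1.43 ± 0.38, edgeR adjusted p = 0.00272), but not so called without its replicates 2 and 3 (adjusted p = 0.122). Peritoneal macrophages and microglia did not overlap, and their difference was just under 2-fold (log2 0.97 ± 0.40, edgeR adjusted p = 0.0381). It passed 2-fold and was called in 4 of the alternative fits (edgeR adjusted p = 0.0244–0.0463). These were the replicate block and the fits without microglia replicate 1, microglia replicate 5 or peritoneal replicate 3.

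The products of Il1b and Il1rn compete for 1 receptor, so the ratio of Il1b to Il1rn was taken within each library, per length of annotated exons (1907 and 5535 bases). Il1a, the other agonist, was left out, so this is not a ratio of all agonist to antagonist. Per kilobase of exon, mean Il1a was 296 CPM in microglia, where Il1b was at 9.53 CPM. In peritoneal macrophages Il1a was at 7.32 CPM per kilobase, above Il1rn (0.588). On the log2 scale the ratio of Il1b to Il1rn was 7.16, 6.80, 7.74 and 7.20 in choroid plexus replicates 1 to 4. MHC II-high dura had 4.16, 5.86, 5.84 and 5.36, and MHC II-low dura 4.79, 5.65, 5.70 and 5.08. Every choroid plexus library was thus above every dura library, and the dura populations overlapped although each transcript alone was higher in MHC II-high cells. Microglia had 4.997, 4.55, 6.58 and 4.43 in replicates 1, 3, 4 and 5, and peritoneal macrophages −3.79, −4.26, −2.39 and −0.94, where Il1rn transcripts outnumbered those of Il1b. Means were 7.23 ± 0.39 (SD, n = 4) in the choroid plexus, 5.31 ± 0.80 in MHC II-high dura, 5.31 ± 0.45 in MHC II-low dura, 5.14 ± 0.99 in microglia and −2.85 ± 1.498 in peritoneal macrophages. Two-sided exact permutation tests were run on all 10 pairs. The choroid plexus and the peritoneal macrophages each differed from every other population with an exact p of 0.0286, the smallest that 4 against 4 libraries allow, and 0.0408 after Benjamini-Hochberg adjustment over the 10 pairs. MHC II-high dura, MHC II-low dura and microglia did not pass the exact test against each other (adjusted p = 1, 0.889 and 0.889). Their mean differences on the log2 scale were −0.00099 between the dura populations, 0.17 between MHC II-high dura and microglia, and 0.17 between MHC II-low dura and microglia. The peritoneal values rest on 1 to 15 counts of Il1b per library. Those of microglia rest on 8 to 38 counts of Il1rn, and the highest of them, in replicate 4, on the 8.

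**Figure D3:**
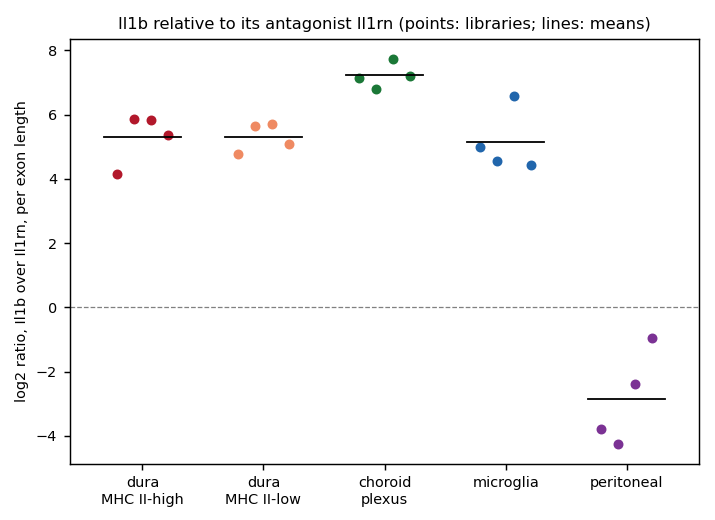
Log2 ratio of Il1b to Il1rn per exon length in each library (points, 4 per population), with a black line at the mean. The choroid plexus libraries (6.80 to 7.74) lie above all others, the dura and microglia libraries overlap, and the peritoneal libraries (−4.26 to −0.94) lie below 0.

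Il18 (chromosome 9, 50554827–50581840, plus strand) encodes the other precursor that caspase-1 cuts. Its mean was 25.5 ± 3.56 CPM in MHC II-high dura, 24.4 ± 1.24 in MHC II-low dura, 18.3 ± 3.77 in peritoneal macrophages, 18.3 ± 4.26 in microglia and 16.6 ± 1.88 in the choroid plexus (SD, n = 4). All 20 libraries lay between 14.4 and 28.1 CPM, and each pair of neighbours in this order overlapped. The widest differences, those of MHC II-high dura over the choroid plexus (log2 0.62 ± 0.16, edgeR adjusted p = 0.00969) and of MHC II-low dura over it (log2 0.55 ± 0.16, adjusted p = 0.0159), were under 2-fold. Per kilobase of exon, Il18 was at 24.7 CPM in MHC II-high dura, a level below that of Il1b (199.9 CPM per kilobase) and above that of Il1a (14.5) in the same cells. In peritoneal macrophages the order was different, with Il18 at 17.8, Il1a at 7.32 and Il1b at 0.121 CPM per kilobase.

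Tnf (chromosome 17, 35199381–35202007, minus strand) encodes tumour necrosis factor. Choroid plexus macrophages had 120.3, 414, 312 and 179.9 CPM in replicates 1 to 4. Microglia had 229, 210.02, 220.4 and 215 CPM in replicates 1, 3, 4 and 5, within 1.09-fold of each other. The choroid plexus thus spanned the whole range of the microglia and more, with replicates 2 and 3 above all microglia libraries and 1 and 4 below. MHC II-high dura had 108, 93.04, 212 and 154 CPM and MHC II-low dura 115, 115, 177 and 157 CPM, and peritoneal macrophages 0.242, 1.28, 0.172 and 1.33 CPM, 78 counts in all. The 4 brain populations did not separate by the test, and each was above peritoneal macrophages, by 7.59 ± 0.56 on the log2 scale in MHC II-high dura, 7.58 ± 0.56 in MHC II-low dura and 8.45 ± 0.57 in the choroid plexus (edgeR adjusted p = 3.61e-09, 3.08e-09 and 1.01e-09). Peritoneal macrophages against microglia gave −8.21 ± 0.57 (edgeR adjusted p = 7.89e-10). The mean of the choroid plexus (257 ± 132 CPM, n = 4) was above that of MHC II-low dura (141 ± 31.2 CPM), a difference that did not pass the test (log2 −0.87 ± 0.39, edgeR adjusted p = 0.106) except without choroid plexus replicate 1 (adjusted p = 0.0433).

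Il6 (chromosome 5, 30013114–30019981, plus strand), a cytokine of fever and the acute phase response, was low in every population. Microglia had 3.76, 2.41, 3.99 and 4.82 CPM in replicates 1, 3, 4 and 5, and peritoneal macrophages 3.66, 2.84, 4.65 and 2.31 CPM in replicates 1 to 4. MHC II-high dura had 1.76, 1.56, 4.22 and 1.06 CPM, with replicate 3 inside the range of microglia. MHC II-low dura had 1.55, 0.932, 1.62 and 1.73 CPM and the choroid plexus 0.148, 0.659, 0.812 and 0.0635 CPM, 25 counts in all. The choroid plexus libraries were the lowest and overlapped with no other population. Il6 was lower in the choroid plexus than in microglia (log2 −3.13 ± 0.60, edgeR adjusted p = 0.000246) and than in peritoneal macrophages (log2 −2.98 ± 0.59, adjusted p = 0.000217). It was higher in MHC II-high dura than in the choroid plexus (2.33 ± 0.59, edgeR adjusted p = 0.00676). The difference from microglia was −3.73 without choroid plexus replicate 3. Without choroid plexus replicates 2 and 3 these 3 differences were −5.19, −4.98 and 4.31. Calls of MHC II-low dura against the choroid plexus (1.78 ± 0.58, edgeR adjusted p = 0.0266) and against microglia (−1.36 ± 0.54, adjusted p = 0.0401) were less stable. The former was lost without choroid plexus replicate 1 or 4 or MHC II-low replicate 3 or 4, or in a fit of these populations alone (adjusted p = 0.0513–0.0812), and the latter without MHC II-low replicate 1, 2 or 3 or microglia replicate 1, 4 or 5 (adjusted p = 0.0546–0.1001 over all fits that lost it). MHC II-low dura was below peritoneal macrophages in every library, and the difference did not pass the test (log2 −1.21 ± 0.53, edgeR adjusted p = 0.0584). It was called lower in 10 of the alternative fits, DESeq2 and the fit of these populations alone among them (adjusted p = 0.0137–0.04998). Means of Il6 (± SD, n = 4) were 3.75 ± 1.003 CPM for microglia and 3.37 ± 1.02 for peritoneal macrophages, with a log2 difference of −0.15 ± 0.52 (edgeR adjusted p = 0.809).

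Il12b (chromosome 11, 44400063–44414033, plus strand) encodes the p40 subunit shared by interleukins 12 and 23. It had 3.62, 0.357, 1.96 and 2.28 CPM in MHC II-high dura, 0.984, 0.0964, 0.8288 and 0 CPM in MHC II-low dura and 1.03, 1.71, 0.542 and 0.318 CPM in the choroid plexus. Microglia had 1.63, 1.17, 1.04 and 0.991 CPM in replicates 1, 3, 4 and 5, and the peritoneal libraries had no count. The 4 brain populations overlapped, except that all MHC II-low dura libraries lay just below all microglia libraries (0.984 CPM at most against 0.991 CPM at least). None of the comparisons among these populations passed the test. Against 3 counts over the 4 peritoneal libraries, the level was at least 79.2-fold higher in MHC II-high dura, 43.8-fold in microglia, 32.4-fold in the choroid plexus and 16.4-fold in MHC II-low dura, all called in edgeR (adjusted p = 0.000127, 0.000191, 0.000405 and 0.00137). In MHC II-low dura the 51 counts came from 3 libraries, and replicate 4 had 0. Without replicate 1 the bound there was 10.5-fold. The partner subunits Il12a and Il23a had 3 counts or fewer in most populations (Il12a in all 5, Il23a in 4), and are named after their values were seen.

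Il10 (chromosome 1, 131019845–131024974, plus strand), the anti-inflammatory cytokine of the group, was highest in dura macrophages. MHC II-low dura had 69.3, 46.5, 84.8 and 61.5 CPM and MHC II-high dura 27.7, 33.2, 54.1 and 30.01 CPM in replicates 1 to 4. The choroid plexus had 3.69, 7.19, 8.73 and 6.48 CPM. All 8 dura libraries were above all 4 choroid plexus libraries, and the dura populations overlapped. Peritoneal macrophages had 1.11, 0, 0.414 and 0.171 CPM, and the 4 microglia libraries held a single count, in replicate 3, the library with the epithelial markers. Il10 was higher in MHC II-low dura than in the choroid plexus by 3.32 ± 0.44 on the log2 scale (edgeR adjusted p = 1.91e-05) and higher in MHC II-high dura by 2.47 ± 0.43 (adjusted p = 0.000533). The dura populations did not pass the test against each other (log2 −0.85 ± 0.39, edgeR adjusted p = 0.188). The choroid plexus was above peritoneal macrophages by 3.89 ± 0.53 (edgeR adjusted p = 4.68e-06). The ratio of CPM to microglia was 4175 in MHC II-low dura (95% counting interval 749 to 164942), 2292 in MHC II-high dura (411 to 90538), 425 in the choroid plexus (75.9 to 16841) and 28.5 in peritoneal macrophages (4.88 to 1149). Without microglia replicate 3, which leaves no count, these are at least 1042-, 572-, 106- and 7.12-fold. Of the 48 peritoneal counts 32 were in replicate 1, without which the peritoneal ratio was 12.9 (2.01 to 543) and the choroid plexus was above peritoneal macrophages by 4.998 on the log2 scale. The receptor Il10ra was highest in microglia, at 1280.2 ± 153 CPM, with 581 ± 29.4 CPM in MHC II-low dura (log2 −1.14 ± 0.12) and 187 ± 29.01 CPM in peritoneal macrophages (log2 −2.78 ± 0.13, both called in edgeR).

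Il15 (chromosome 8, 82331632–82403222, minus strand), the cytokine of NK and memory T cells, had means from 11.7 CPM in peritoneal macrophages to 32.4 CPM in MHC II-low dura. In replicates 1 to 4 it was at 32.6, 25.9, 34.6 and 36.3 CPM in MHC II-low dura, and MHC II-high dura had 33.02, 17.8, 37.7 and 31.5 CPM. The choroid plexus had 19.1, 17.3, 21.3 and 16.3 CPM. MHC II-high dura overlapped with both of these populations. Microglia had 11.2, 10.98, 12.8 and 14.1 CPM in replicates 1, 3, 4 and 5 and peritoneal macrophages 17.9, 10.1, 8.03 and 10.6 CPM, and these overlapped too. Both dura populations were above microglia, by 1.29 ± 0.23 in MHC II-high and 1.40 ± 0.23 in MHC II-low cells on the log2 scale (edgeR adjusted p = 7.16e-05 and 3.25e-05). They were also above peritoneal macrophages, by 1.36 ± 0.22 and 1.47 ± 0.22 (edgeR adjusted p = 3.47e-05 and 1.25e-05). The choroid plexus lay between, less than 2-fold from each of the other populations.

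Because cell handling can induce cytokine transcripts, the spread between libraries was measured for each gene. The biological coefficient of variation in edgeR was 0.830 for Il12b, 0.486 for Il10, 0.457 for Il6, 0.441 for Tnf, 0.391 for Il1b, 0.357 for Il1a and Il1rn, 0.225 for Il15 and 0.169 for Il18. The median of the 9 was 0.391, beside 0.200 over all genes tested. Only Il18 was below that median. By population, the median SD of log2 CPM over the cytokine genes with more than 3 counts was 0.67 in the choroid plexus, against 0.19 over all genes. It was 0.53 against 0.25 in MHC II-high dura, 0.46 against 0.30 in peritoneal macrophages, 0.32 against 0.23 in MHC II-low dura and 0.32 against 0.24 in microglia. The share of all genes with an SD at or above the cytokine median was 13.1% in the choroid plexus. It was 26.2% in MHC II-high dura, 28.5% in peritoneal macrophages, 37.9% in MHC II-low dura and 38.7% in microglia, so such a spread was common there. In MHC II-high dura, replicate 3 was the highest library for 6 of the 9 genes (Il1a, Il1b, Il6, Il10, Il15 and Tnf). The next most was 4 genes, in MHC II-low replicates 3 and 4, choroid plexus replicates 2 and 3 and microglia replicate 1. The share of all genes highest in each library was not counted.

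The immediate early and heat shock genes, which are induced by stress and by tissue dissociation, were set beside this spread. In the choroid plexus, replicates 2 and 3 had the highest sum of these genes and the highest Il1b and Tnf, as given above. In MHC II-high dura the highest sum was that of replicate 3 (49481 CPM, against 43915–46566 in the others). The library with the highest sum was also the highest for Il1b in 4 of 5 populations, for Tnf in 3 of 5, for Il10 in 3 of the 4 populations with counts, for Il6 and Il15 in 2 of 5, for Il1a, Il1rn and Il18 in 1 of 5 and for Il12b in 0 of 4. At the low end, the library with the lowest sum was the lowest for Il1b in 0 of 5 populations, for Il10 in 0 of 4, for Tnf in 1 of 5 and for Il12b in 3 of 4. Such a match looks at a single library and leaves near ties out of account, and how often other genes match was not counted. The sum of the NF-kappaB subunits and feedback genes, listed below, gave the same counts at the high end, 4 of 5 for Il1b, 3 of 5 for Tnf and 3 of 4 for Il10. At the low end it gave 2 of 5, 3 of 5 and 1 of 4. In the choroid plexus, replicates 1 and 4 had the lower sums and also the lower Il1b and Tnf, though not in the same order. MHC II-low replicate 4 and microglia replicate 1, each the highest of its population for 4 cytokine genes, had the lowest sums, and in microglia replicate 1 these genes included Il1b and Tnf. Between populations the sum was 43915–49481 CPM in MHC II-high dura, 43899–53747 in MHC II-low dura, 27246–59224 in the choroid plexus, 48180–58463 in microglia and 1508–1953 in peritoneal macrophages. The peritoneal libraries, with the lowest sums, also had the lowest Il1b and Tnf, whereas Il6 was at 3.37 CPM there and 3.75 CPM in microglia, and Il18 at 18.3 CPM in both. The part of handling in these differences was not tested.

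**Figure D4:**
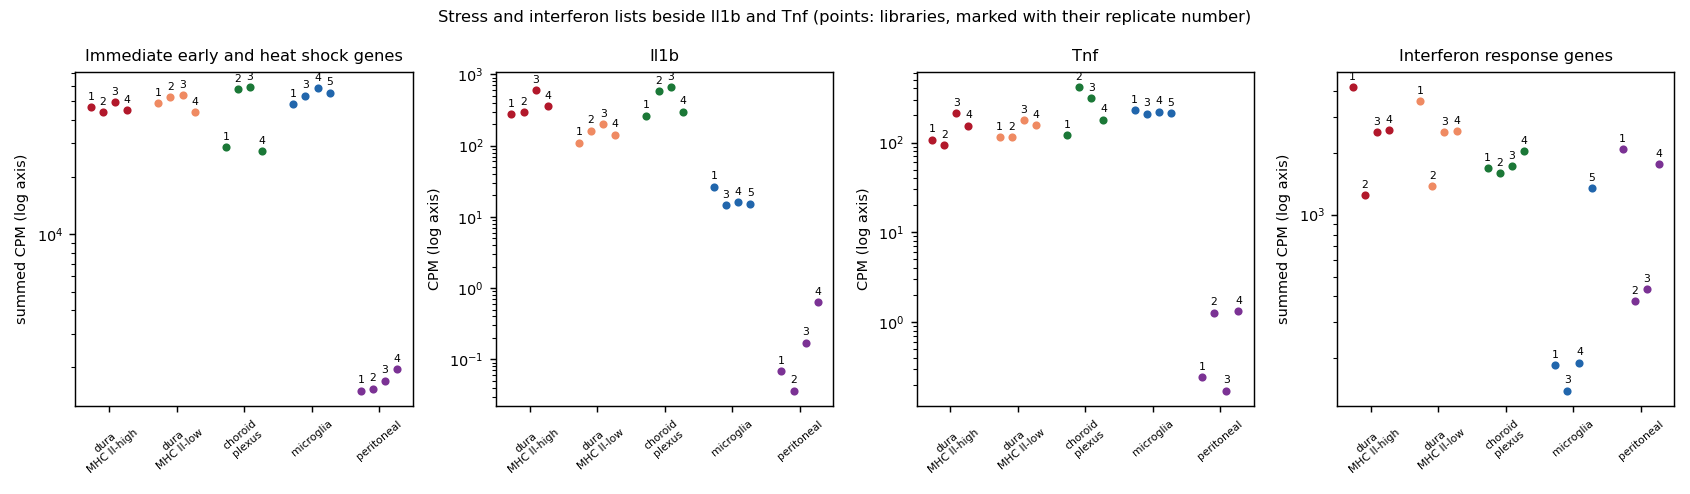
Summed CPM of the immediate early and heat shock genes, CPM of Il1b, CPM of Tnf and summed CPM of the interferon response genes (4 panels, log axes) in the 20 libraries, each point a library marked with its replicate number. Peritoneal libraries are lowest in the first 3 panels, choroid plexus replicates 2 and 3 lie above 1 and 4 in those panels, and microglia replicate 5 stands above the other microglia in the last.

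Pathway lists were counted gene by gene against microglia, beside the 27.9% of all genes called in MHC II-high dura, 26.5% in MHC II-low dura, 19.2% in the choroid plexus and 44.6% in peritoneal macrophages. In peritoneal macrophages 17 of 20 immediate early and heat shock genes (85%) were lower and none higher (median log2 −3.83, beside −0.11 over all genes), among them the AP-1 subunits Fos (12.9 ± 3.97 against 12129 ± 1383 CPM, log2 −9.88 ± 0.33) and Jun (−7.50 ± 0.26). In the brain populations 6 were higher and 1 lower in MHC II-high dura (35% called), 7 and 1 in MHC II-low dura (40%), and 6 and 1 in the choroid plexus (35%). The share in MHC II-high dura was near that of all genes, and its 7 calls were 4 without its replicate 3 or without microglia replicate 1. The rises included the chaperone Hspa1b, at 748 ± 325 CPM in MHC II-high dura, 685 ± 268 in MHC II-low dura, 238 ± 93.2 in the choroid plexus and 19.4 ± 8.98 in microglia. Hspa1a and Hspa1b are near-identical genes whose reads the counting could divide, so their values are uncertain.

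Of 14 NF-kappaB subunits and feedback genes, 11 were lower and 1 higher in peritoneal macrophages than in microglia (85.7% called, beside 44.6% of all genes; median log2 −2.33), with Tnfaip3, which shuts off NF-kappaB signalling, at 14.2 ± 4.57 against 1041 ± 74.5 CPM (log2 −6.19 ± 0.33). Zfp36, whose product destabilises Tnf mRNA, was at 145 ± 25.7 against 7037 ± 1046 CPM (log2 −5.61 ± 0.26). In the dura and choroid plexus 3 genes were higher than in microglia, with 2 lower in MHC II-high dura, 3 in MHC II-low dura and 4 in the choroid plexus. These are 35.7%, 42.9% and 50% of the list, beside 27.9%, 26.5% and 19.2% of all genes. The chemokine Cxcl2 led the rises, at 409.97 ± 254 CPM in MHC II-high dura, 296 ± 109 in MHC II-low dura and 216 ± 112 in the choroid plexus, against 12.5 ± 0.599 in microglia (log2 5.04 ± 0.49, 4.57 ± 0.48 and 4.11 ± 0.47). Between the dura populations, no gene of either list was called.

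Genes that receive or process interleukin-1 and interleukin-18 were called in part. Of 14 receptor and signalling genes, 13 were tested, and against microglia 4 were higher and 1 lower in MHC II-high dura, 2 and 1 in MHC II-low dura, 4 and 0 in the choroid plexus, and 4 and 2 in peritoneal macrophages. The shares called were 38.5%, 23.1%, 30.8% and 46.2%, of which those of MHC II-low dura and peritoneal macrophages lay near the 26.5% and 44.6% of all genes. The 5 calls of MHC II-high dura were 3 without microglia replicates 3 and 5. Il18bp, the secreted decoy that binds interleukin-18, was at 2.95 ± 2.31 CPM in microglia and at 47.3 ± 10.99, 50.3 ± 14.5, 31.8 ± 20.01 and 47.8 ± 36.3 CPM in MHC II-high dura, MHC II-low dura, choroid plexus and peritoneal macrophages. It was higher in each by a log2 fold change of 4.01 ± 0.61, 4.10 ± 0.61, 3.44 ± 0.60 and 4.03 ± 0.61, while Il18 itself was not called. Irak3, an inhibitor of signalling below the interleukin-1 receptor, was also higher in all 4 (log2 3.25 ± 0.17, 2.97 ± 0.17, 3.16 ± 0.17 and 3.88 ± 0.17).

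Among 9 inflammasome genes, the sensor Nlrp3 was highest in microglia (194 ± 51.4 CPM) and lower in the choroid plexus (79.5 ± 32.1 CPM, log2 −1.28 ± 0.29), MHC II-high dura (−1.22 ± 0.29), MHC II-low dura (−1.43 ± 0.29) and peritoneal macrophages (16.6 ± 4.59 CPM, −3.54 ± 0.32). Nlrc4, a sensor of bacterial flagellin and secretion systems, was at 29.3 ± 2.39 CPM in MHC II-high dura, 50.3 ± 4.53 in MHC II-low dura and 36.7 ± 4.09 in the choroid plexus, and at 0.0624 ± 0.0886 CPM in microglia. Casp1, the converting enzyme, was higher than in microglia in MHC II-high dura (log2 1.28 ± 0.15), MHC II-low dura (1.29 ± 0.15) and peritoneal macrophages (1.70 ± 0.15). In all, 3 of the 9 were higher and 1 lower in each dura population, 1 and 2 in the choroid plexus, and 4 and 2 in peritoneal macrophages. These are 44.4% of the list in each dura population, 33.3% and 66.7%, beside 27.9%, 26.5%, 19.2% and 44.6% of all genes. The 4 calls of MHC II-high dura were 2 without microglia replicates 3 and 5. Pycard, the adaptor that joins sensor to caspase, reached 569.6 ± 117 CPM in peritoneal macrophages, against 103 ± 14.6 in microglia (log2 2.46 ± 0.14).

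Of 10 genes for processing and receiving tumour necrosis factor, 9 were tested, with 0 higher and 1 lower in MHC II-high dura, 1 and 2 in MHC II-low dura, 1 and 1 in the choroid plexus, and 1 and 3 in peritoneal macrophages, each against microglia. The shares called were 11.1%, 33.3%, 22.2% and 44.4%, and that of peritoneal macrophages was at the 44.6% of all genes. Adam17, the releasing protease, was at 138 ± 17.8 CPM in peritoneal macrophages and 302 ± 46.7 CPM in microglia (log2 −1.13 ± 0.11). Of 17 partners and receptors of interleukins 6, 10, 12 and 15, 14 were tested. The counts against microglia were 3 higher and 1 lower in MHC II-high dura, 3 and 2 in MHC II-low dura, 5 and 2 in the choroid plexus, and 3 and 5 in peritoneal macrophages. These are 28.6%, 35.7%, 50% and 57.1%, and the first is at the 27.9% of all genes called in MHC II-high dura. Il2rg, the common gamma chain of the interleukin-15 receptor, was higher in all 4, at 172 ± 33.4 CPM in MHC II-high dura against 12.4 ± 2.74 in microglia (log2 3.79 ± 0.21). Il6st, the signal transducer of the interleukin-6 receptor, was lower in MHC II-high dura (−1.57 ± 0.16), MHC II-low dura (−1.44 ± 0.16) and the choroid plexus (−1.70 ± 0.16).

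Interferon response genes were higher than in microglia in 12 of 12 cases in MHC II-high dura, 11 in MHC II-low dura, 6 in the choroid plexus and 3 in peritoneal macrophages, with none lower. The last is 25% of the list, below the 44.6% of all genes called there. The counts of the choroid plexus and peritoneal macrophages rest on single libraries. The summed level of the list was 1345 CPM in microglia replicate 5 and 139 to 191 CPM in the other microglia libraries, and without that replicate the counts were 12, 12, 12 and 10. The count of the choroid plexus was 3 without microglia replicate 1 or 4 and 2 without choroid plexus replicates 2 and 3. In fits of 2 populations alone, the number called was 7 in MHC II-high dura, 2 in the choroid plexus and 0 in peritoneal macrophages. Rsad2, an antiviral enzyme, was at 130.5 ± 57.4 CPM in MHC II-high dura and 155 ± 47.1 in MHC II-low dura, against 8.35 ± 9.44 in microglia (log2 3.98 ± 0.73 and 4.22 ± 0.73). Their sum varied within populations, from 1249 to 4171 CPM in MHC II-high dura, 1380 to 3565 in MHC II-low dura and 381 to 2075 in peritoneal macrophages. The lowest sum was that of replicate 2 in every population but microglia, which have no replicate 2. The highest was that of replicate 1 in both dura populations and peritoneal macrophages. The library with the lowest sum was also the lowest for Il18 in 4 of 5 populations, each time replicate 2, and for Il15 and Tnf in 3 of 5. The one with the highest sum was the highest for Il18 in 3 of 5, for Il15 in 2 of 5 and for Tnf in 0 of 5. How often other genes match this sum was not counted. Microglia replicate 5, with the highest sum, had the highest Il15 (14.1 CPM) and Il18 (24.2 CPM) of the microglia. The part of the interferon response in the levels of Il15 and Il18 was not tested.

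For the 7 cytokine genes at 10 CPM or more in some population, the genes of most like pattern were found by Pearson's r of log2 CPM over the 20 libraries among 9425 genes. The libraries form 5 populations, so r mostly reflects differences between populations and is given as a description. For Il1a the closest were Vps37b (r = 0.96), Map4k5 and Gramd1a (both 0.95). Il1b was closest to Rnf150 and Tlr2, a sensor of bacterial lipoproteins (both 0.98), followed by Pea15a (0.98). For Tnf these were Ptms, Cd83, an activation marker of antigen-presenting cells (both 0.99), and Btg1 (0.98). Cd83 had means of 1611 CPM in MHC II-high dura, 1173 in MHC II-low dura, 1527 in the choroid plexus, 1286 in microglia and 2.24 in peritoneal macrophages, the same division of brain and peritoneum as Tnf. Il1rn was closest to Traf1, an adaptor of TNF receptors (0.98), Il10 to Maoa (0.97), Il15 to the interferon-induced Ifit2 (0.94), and Il18 to Cd274 (0.87), which encodes PD-L1.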

How the data were processed

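Total RNA of 20 macrophage samples was sequenced. The authors deposited whole-number read counts, 1 per gene symbol and library, with no normalization. The submitters' processing notes name the build mm10, the aligner TopHat2 2.1.0, SAMtools 0.1.18, Trimmomatic 0.38 and FastQC 0.11.4. Which program and annotation counted the reads, and whether by strand, is not given in the sources used here. Reads in no feature (5.67–13.1% of the reads counted) and ambiguous reads (0.836–1.51%) were left out. Positions and exon lengths are from GENCODE release M21 on the same build, which holds 23376 of the 24421 symbols, and start regions are from RefSeq (GRCm38.p6).

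The members, lists, tests and naming rule were chosen with earlier results of these data known. In edgeR 4.0.16 (R 4.3.3), 1 model was fitted to all 20 libraries, with filterByExpr (13960 genes), TMM factors (0.923–1.05) and the robust quasi-likelihood F test on 15 residual degrees of freedom. P-values were adjusted over all genes tested in each comparison by the Benjamini-Hochberg method. The standard error is the size of the log2 fold change over the square root of F. Named genes are the 9 cytokine genes, up to 4 called genes per list with the largest change at 10 CPM or more, and the 3 genes of most like pattern. The Il1b to Il1rn ratio was tested with scipy 1.17.1, with 0.5 added to both counts. Intervals (95%) and the floor of 3 counts describe counting error alone, because read counts with no molecular identifiers are not counts of molecules. Alternatives were DESeq2 1.42.0, other scaling factors, a filter of 10 CPM in 4 libraries, no filter, fits of 2 populations alone, a replicate block and each library left out in turn. The edgeR test was checked on simulated data for MHC II-high against MHC II-low dura only, with less spread than every cytokine gene but Il18 has. DESeq2 and the exact test were not checked in this way. Library pairs with identical values numbered 0.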

Additional observations from a re-analysis of the deposited data

Results flagged for a closer look

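In each population of 4 libraries, the gap between the highest or lowest library and its nearest neighbour was divided by the range and compared with Dixon's 95% critical value for 4 values. Of 48 groups checked, 2 passed it, and chance alone passes about 1 in 20. Il1a in MHC II-high dura replicate 3 was at 57.6 CPM, where the other libraries of that population were at 16.0–22.1 CPM (ratio 0.853). Il1b in microglia replicate 1 was at 26.5 CPM, where the other microglia libraries were at 14.6–16.2 CPM (ratio 0.867).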

How the results depend on the processing

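Of 90 pairs of a cytokine gene and a comparison, 49 were called. Across 7 other settings, 20 fits that each left out a library and 2 fits added after seeing the data (choroid plexus replicates 2 and 3, or microglia replicates 3 and 5, left out together), 42 of these stayed called wherever they were tested, 7 were lost in some and 6 others were gained in some. The lost calls not given above were that of Il10 in peritoneal macrophages against microglia without microglia replicates 3 and 5 (adjusted p = 0.0586), and that of Il6 in MHC II-low dura against microglia under the replicate block and without microglia replicates 3 and 5. The count of calls between the dura populations was 0–2 with single libraries left out, and it was 0 without MHC II-low replicate 2 and 1 without MHC II-high replicate 1 or MHC II-low replicate 1 or 4. Adding 5 to both counts moved the difference of the Il1b to Il1rn log2 ratio to 8.91 between choroid plexus and peritoneal macrophages, 7.03 between MHC II-low dura and peritoneal macrophages, and −6.61 between peritoneal macrophages and microglia, with the direction kept.

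Among the cytokine genes and the Il1b to Il1rn ratio, the sign turned only where nothing was called. For Il18 in peritoneal macrophages against microglia (log2 0.01) it became −0.042 with DESeq2, −0.043 with its size factors in edgeR, −0.054 with the filter of 10 CPM, −0.013 with no filter, −0.0028 with these populations alone, −0.048 with upper-quartile factors, −0.046 without choroid plexus replicates 2 and 3, and −0.13 to 0.13 with single libraries left out. For Tnf between the dura populations (0.01) it became −0.0042 with no filter, −0.0015 with these populations alone, −0.0033 with the replicate block, −0.0084 with upper-quartile factors, −0.0061 without choroid plexus replicates 2 and 3, and −0.25 to 0.16 with single libraries left out. Without choroid plexus replicates 2 and 3, Il1a in the choroid plexus against peritoneal macrophages became −0.20, Il1b in MHC II-high dura against the choroid plexus 0.44 and Tnf in the choroid plexus against microglia −0.62. The last 2 ran from −0.55 to 0.013 and from −0.16 to 0.40 with single libraries left out, crossing 0 without choroid plexus replicate 3 and 2. With the replicate block, Il15 in peritoneal macrophages against microglia became 0.082 and Il18 in the choroid plexus against microglia 0.10. With single libraries left out, Il15 ran from −0.36 to 0.069 in peritoneal macrophages against microglia and from −0.24 to 0.071 between the dura populations. The causes were not tested.

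Over all genes tested, libraries with the same replicate number were little alike. The correlation of deviations over 36 such pairs was −0.146 to 0.120, and 5 of 20 libraries correlated best with their own number. A correlation over all genes cannot show a pairing or batch that acts on few genes. The interferon response sum did follow the numbers in part, as given above, and with the replicate block 12 of its 12 genes were called in the choroid plexus and 10 in peritoneal macrophages, each against microglia. With the replicate block, the count of calls was 5 in MHC II-low dura and 6 in peritoneal macrophages, each against microglia, and equal to the values above in the other 8 comparisons. The filter of 10 CPM kept 7 of the cytokine genes and removed Il6 and Il12b. Upper-quartile factors moved the median of all genes by at most −0.11. Counts of Il6, Il10, Il12b and Il1rn are few in some populations, which limits their folds.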
